A study of Mus musculus with 9 samples.

Results

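Lipid transport was examined here through 9 genes of apolipoproteins and of lipid transfer, which were measured in B cells sorted from the mouse spleen. The genes were Apoe, Apoc1, Apoc2, Apoc4, Pltp, Abca1, Abcg1, Lpl and Plin2, out of 24346 gene symbols in each library. They were listed by name and selected with the measured levels in age-associated B cells (ABCs) and follicular (FO) B cells already known, so their values in ABCs against FO B cells are given as a description. No p-value is given for them in that comparison. The comparison of FO B cells between ages and the comparisons of 87 other genes of lipid handling were tested. These genes and lists too were chosen with earlier results of these data known, so the tests are not independent of that choice.

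The study profiled 3 groups of 3 libraries each, all from C57BL6 mice. FO B (Young) and FO B (Aged) were FO B cells from animals of 8 and 50 weeks, and ABCs (Aged) were ABCs from animals of 50 weeks. By the study's methods both populations were sorted as B220hi CD43- CD21lo B cells, with FO B cells CD23+ and ABCs CD23- and positive for CD11b and CD11c, integrins that myeloid cells also carry. No young ABCs were analysed here, so the ABC comparison within aged mice is one of cell type and not of age. The libraries of a group came from separate mice by the legends of the study. The p-values set the difference between groups against the spread between such libraries.

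Apolipoproteins are the protein part of lipoproteins and of the smaller lipid particles that cells release. Apolipoprotein E is a ligand through which cells take up these particles, and macrophages and the liver are known sources of it. Abca1 and Abcg1 pump cholesterol and phospholipid out of the cell onto lipid-poor and mature particles respectively, Pltp moves phospholipid between particles, Lpl splits their triglycerides and Plin2 coats the lipid droplets inside the cell. Many of these genes are known targets of the liver X receptors (LXRs), which sense oxysterols and bind DNA as partners of the retinoid X receptors.

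In ABCs, Apoe and Apoc2 transcripts were far higher than in FO B cells, Plin2 and Abcg1 were moderately higher and Abca1 was lower. Pltp separated FO B cells by age. Lpl was close to nothing in every group, and Apoc1 and Apoc4 were listed at 0 in every library. Levels are in FPKM, mapped fragments scaled by transcript length and by the depth of the library.

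Apoe (chr7:19696109-19699188, minus strand, GRCm38) was read at 286, 253 and 262 FPKM in the libraries of young FO B cells and at 237, 264 and 297 FPKM in those of aged FO B cells. The ABC libraries held 2767, 1954 and 4150 FPKM. Every ABC library lay above every FO B library, and the FO B libraries of both ages overlapped. The means were 267 ± 16.9, 266 ± 29.7 and 2957 ± 1110 FPKM (SD, n = 3 each), so that the ABC mean was 11.1 times that of aged FO B cells. On the log2(FPKM + 1) scale the fitted difference was 3.41 ± 0.25 (SE).

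Apoe was not a silent gene in FO B cells. It ranked between 341 and 422 from the top among all genes in the FO B libraries, and between 11 and 41 in the ABC libraries. In ABCs it took 0.387%, 0.275% and 0.586% of the summed FPKM of replicates 1, 2 and 3. The Apoe level was 103% ± 58.9 of that of Cd79a, a subunit of the B cell receptor, in ABCs and 8.38% ± 0.515 in aged FO B cells (SD, n = 3 each).

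Apoc2, whose protein activates lipoprotein lipase, was the member with the widest range. It was listed at 0 in all 3 libraries of young FO B cells, and at 0.718, 0 and 4.33 FPKM in those of aged FO B cells. The ABC libraries held 108, 59.5 and 449 FPKM. The lowest ABC library was thus well above the highest FO B library, while the ABC libraries themselves differed 7.54-fold. The fitted difference from aged FO B cells was 6.10 ± 0.83 on the log2(FPKM + 1) scale, a value that depends on the added constant because 1 aged FO B library was at 0. Relative to Apoe, Apoc2 stood at 3.91%, 3.05% and 10.8% in ABC replicates 1, 2 and 3.

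Both genes belong to a cluster of 27610 bases on chromosome 7 in which Apoc2 (19671579 to 19677941), Apoc4 (19678083 to 19681479), Apoc1 (19689481 to 19692660) and Apoe lie on the same strand. Apoc1 and Apoc4, the genes between them, were listed at 0 FPKM in all 9 libraries. Across the genome 4625 symbols, or 19%, were listed at 0 throughout, and 0 of 77 ribosomal protein genes were. A separate row for the Apoc4-apoc2 readthrough transcript was at 0 except for 8.39e-05 FPKM in FO B (Aged) replicate 3. Apoc2 and Apoc4 overlap the annotated gene Gm44805 on the same strand, and how reads shared between them were assigned is not given in the sources used here.

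**Figure D1:**
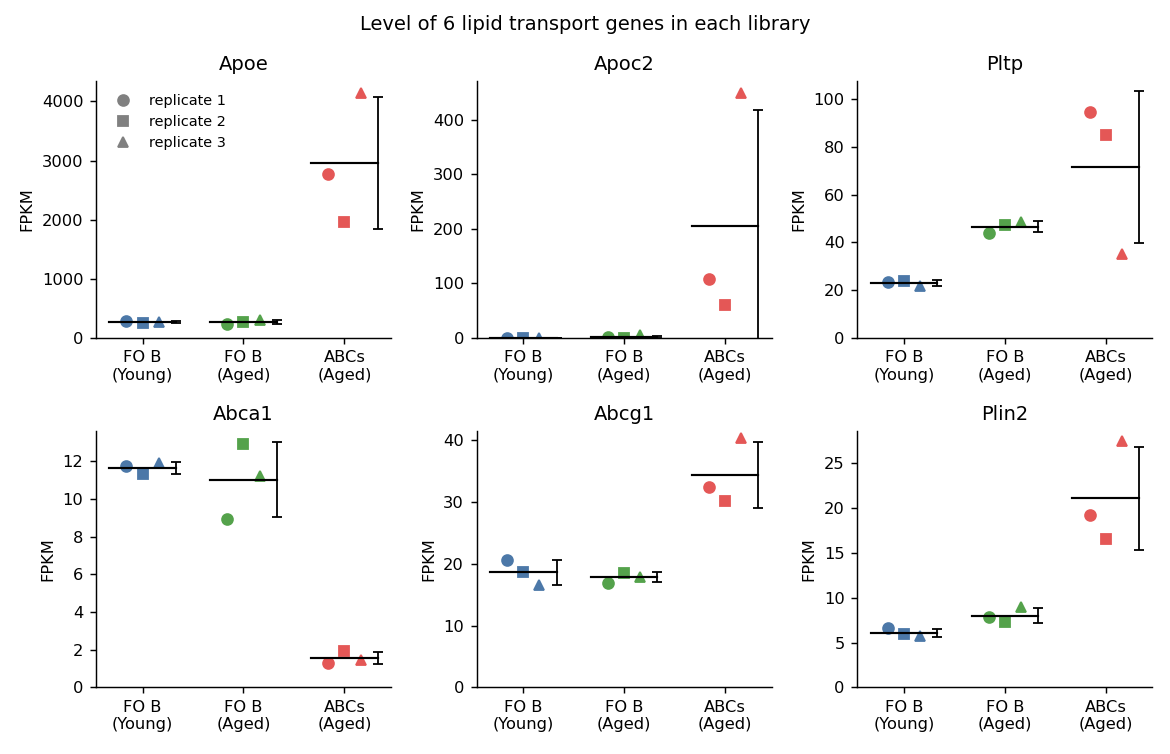
FPKM (linear axis from 0) of Apoe, Apoc2, Pltp, Abca1, Abcg1 and Plin2 in each library; points are libraries, shaped by replicate number, lines are means and bars are SD (n = 3), the Apoc2 bar in ABCs being cut at 0. Apoe, Apoc2, Abcg1 and Plin2 are higher and Abca1 is lower in all 3 ABC libraries than in any FO B library, and Pltp in ABC replicate 3 (35.0 FPKM) lies below all 3 aged FO B libraries.

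The efflux transporters moved in opposite directions, as the plot of levels by library shows. Abca1 (chr4:53030787-53159895, minus strand) was at 11.7, 11.3 and 11.9 FPKM in young FO B cells, at 8.94, 12.9 and 11.2 FPKM in aged FO B cells and at 1.28, 1.92 and 1.48 FPKM in ABCs. All ABC libraries were below all FO B libraries, and the mean of 1.56 ± 0.325 FPKM was 7.07 times lower than the 11.0 ± 2.0 FPKM of aged FO B cells (SD, n = 3 each). The log2 difference was -2.23 ± 0.17, a size that the added constant reduces.

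Abcg1 (chr17:31057675-31117988, plus strand) was at 20.7, 18.7 and 16.6 FPKM in young FO B cells, at 17.0, 18.6 and 17.9 FPKM in aged FO B cells and at 32.5, 30.2 and 40.4 FPKM in ABCs. The ABC libraries were again apart from all others, and their mean of 34.3 ± 5.36 FPKM was 1.93 times that of aged FO B cells, with a log2 difference of 0.90 ± 0.12. The Abca1 level was 63.1% ± 8.01 of the Abcg1 level in young FO B cells, 61.6% ± 8.53 in aged FO B cells and 4.66% ± 1.48 in ABCs (SD, n = 3 each).

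Plin2 (chr4:86648386-86670060, minus strand), the droplet coat protein, was at 6.58, 5.98 and 5.74 FPKM in young FO B cells, at 7.85, 7.30 and 8.92 FPKM in aged FO B cells and at 19.2, 16.5 and 27.6 FPKM in ABCs. The 3 groups did not overlap and stood in the order young FO B, aged FO B, ABC. The ABC mean of 21.1 ± 5.76 FPKM was 2.63 times that of aged FO B cells, with a log2 difference of 1.26 ± 0.18.

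Lpl (chr8:68880491-68907448, plus strand) was at 0.0878, 0.0889 and 0.236 FPKM in young FO B cells, at 0.0320, 0.0526 and 0.0878 FPKM in aged FO B cells and at 0.222, 0.172 and 0.126 FPKM in ABCs. Its values were whole multiples of a single step, which puts the groups at 14, 6 and 17 reads in sum. At so few reads a difference between the groups was not detectable with any precision, and Lpl did not pass the filter on low values.

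Of the 9 genes, 6 passed the filter on low values, which asked for 1 FPKM or more on average in the libraries compared, and Apoc2 passed it only through its ABC libraries. Against aged FO B cells, 4 of the 6 were higher in ABCs at a false discovery rate (FDR) under 0.05, 1 was lower and Pltp was not called. At the same setting 35.9% of 10412 genes tested were called, 19.4% higher and 16.5% lower. Under the stricter limits of the study (log2 fold change beyond 2.3 either way, FDR below 0.01), Apoe and Apoc2 passed beside 1.92% of all genes. The libraries of both groups did not overlap for 5 of the 6 genes and for 52.6% of all genes tested. These counts describe genes that were selected on the same values.

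Measured against young FO B cells, which shares the ABC libraries with the comparison above, all 6 genes that passed the filter were called, Apoc2 having passed only through ABCs, 5 higher and 1 lower, beside 40.7% of 10438 genes. Cell type and age both differ in this comparison and cannot be told apart. The genes were selected with the ABC values known, so this count too is a description. The log2 differences were 7.17 ± 0.64 for Apoc2, 3.40 ± 0.24 for Apoe, 1.61 ± 0.18 for Plin2, 1.48 ± 0.34 for Pltp, 0.84 ± 0.13 for Abcg1 and -2.31 ± 0.13 for Abca1. The Apoc2 value was set by the added constant, since all 3 young FO B libraries were listed at 0, and it ran from 6.34 to 10.48 over the alternatives. The order of the genes was that of the comparison within aged mice, except that Pltp stood above Abcg1.

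The ABC libraries differed among themselves more for some of these genes than for most genes. The highest library exceeded the lowest 2.12-fold for Apoe, 7.54-fold for Apoc2 and 2.70-fold for Pltp, while the median over 9885 genes was 1.22-fold. These ratios were above those of 94.9%, 99.8% and 97.6% of genes. Abca1, Abcg1 and Plin2 varied less, at 1.49, 1.34 and 1.67-fold. Apoe, Apoc2, Abcg1 and Plin2 were each highest in replicate 3, intermediate in replicate 1 and lowest in replicate 2, an order that 21.8% of all genes showed. Pltp had the opposite extreme and was lowest in replicate 3.

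Pltp (chr2:164839518-164857711, minus strand) encodes the phospholipid transfer protein and was the member that changed with age in FO B cells. It was at 23.3, 23.9 and 21.6 FPKM in young FO B cells, at 43.9, 47.2 and 48.4 FPKM in aged FO B cells and at 94.5, 85.0 and 35.0 FPKM in ABCs. The FO B libraries of both ages were far apart and tight within each age, whereas ABC replicate 3 fell below the aged FO B range and the other ABC libraries lay above it. The mean was 22.9 ± 1.2 FPKM in young and 46.5 ± 2.34 FPKM in aged FO B cells (SD, n = 3 each), a ratio of 2.03.

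In the fit across all genes with limma, Pltp rose with age by 0.99 ± 0.07 on the log2 scale (95% interval 0.83 to 1.15, FDR 0.00146), in 3 of 3 aged libraries against every young one. It was the only called gene among the 5 members tested, while 0.464% of 10122 genes were called. The members were chosen with earlier results of these data known. The exact two-sided permutation test of the means gave p = 0.1, which is the smallest value that 3 libraries against 3 allow. When all 9 libraries were fitted together, so that the spread was shared with ABCs, the FDR was 0.306. In ABCs the log2 difference from aged FO B cells was 0.49 ± 0.34, and 0.93 without ABC replicate 3.

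**Figure D2:**
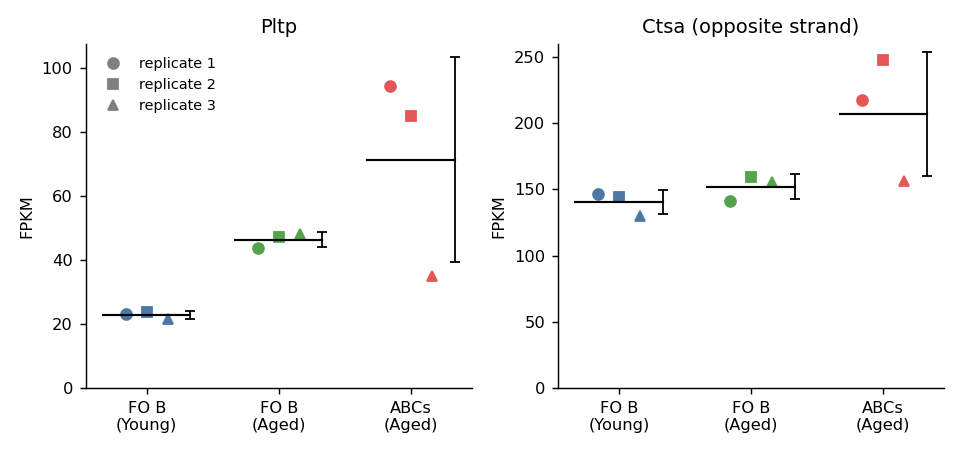
FPKM (linear axes from 0) of Pltp and of Ctsa, the gene that overlaps its end on the opposite strand, in each library; points are libraries shaped by replicate number, lines are means and bars are SD (n = 3). Pltp is about 2.03 times higher in aged than in young FO B cells with no overlap, while the Ctsa libraries of both ages overlap.

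The end of Pltp overlaps Ctsa, which encodes the lysosomal protein cathepsin A on the other strand. Over 1515 shared bases they have 495 exon bases in common, or 19.3% of the Pltp exon bases. The counting was not stated to use strand, so reads from the shared bases cannot be told apart. Ctsa was at 140 ± 9.03 FPKM in young and 152 ± 9.66 FPKM in aged FO B cells (SD, n = 3 each), and its libraries of both ages overlapped, as the paired plot of Pltp and Ctsa shows. In ABCs it was at 217, 247 and 156 FPKM, so that replicate 3 was lowest for both genes.

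The other members did not pass the test with age. Plin2 differed by 0.34 ± 0.11 on the log2 scale (FDR 0.235), with the 3 aged libraries above the 3 young ones and an exact permutation p of 0.1. The log2 differences of Apoe, Abca1 and Abcg1 were -0.01 ± 0.09, -0.09 ± 0.13 and -0.06 ± 0.09, with FDRs of 0.98, 0.832 and 0.852. Their 95% intervals ran from -0.21 to 0.19, from -0.37 to 0.20 and from -0.27 to 0.16. Apoc2 was too low for the fit, with an exact permutation p of 0.4, and Lpl gave 0.1 on 6 against 14 reads. The libraries of both ages did not overlap for 18.6% of all genes tested.

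The starts of 6 of the 9 genes were in the RefSeq promoter table (GRCm38.p6), and those shown are of the gene that was lower in ABCs, of the pair of cluster genes that were higher and of the gene that changed with age. Each is the 250 bases before an annotated start, written 5′ to 3′ on the gene's strand. Capitals mark the letters GGTCA, the half-site of many nuclear receptors, on either strand, and in Abca1 the pair of half-sites that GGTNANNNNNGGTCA describes. The Abca1 window is chr4:53159896-53160145, that of Apoe is chr7:19699189-19699438, that of Apoc2 is chr7:19677942-19678191 and reaches into the end of Apoc4, and that of Pltp is chr2:164857709-164857958, all on the minus strand.
Abca1: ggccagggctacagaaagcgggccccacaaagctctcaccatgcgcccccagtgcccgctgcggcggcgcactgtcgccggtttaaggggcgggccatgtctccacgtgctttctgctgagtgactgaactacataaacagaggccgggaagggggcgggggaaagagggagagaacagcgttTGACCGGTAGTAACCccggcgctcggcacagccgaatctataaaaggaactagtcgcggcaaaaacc
Apoe: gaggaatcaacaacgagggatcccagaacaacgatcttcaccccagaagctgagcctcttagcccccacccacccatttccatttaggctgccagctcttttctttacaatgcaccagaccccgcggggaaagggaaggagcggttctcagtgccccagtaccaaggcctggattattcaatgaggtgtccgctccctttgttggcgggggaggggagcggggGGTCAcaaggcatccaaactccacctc
Apoc2: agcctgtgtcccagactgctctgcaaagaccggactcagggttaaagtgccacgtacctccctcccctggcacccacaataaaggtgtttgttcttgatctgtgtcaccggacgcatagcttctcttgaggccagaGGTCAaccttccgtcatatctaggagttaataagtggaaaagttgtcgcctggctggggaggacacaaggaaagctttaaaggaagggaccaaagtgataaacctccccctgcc
Pltp: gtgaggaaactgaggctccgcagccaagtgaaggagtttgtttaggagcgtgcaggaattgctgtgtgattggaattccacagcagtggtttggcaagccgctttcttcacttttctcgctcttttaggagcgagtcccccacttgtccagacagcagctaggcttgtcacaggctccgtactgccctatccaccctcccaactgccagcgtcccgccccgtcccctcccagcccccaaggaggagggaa
The pair in Abca1, which is a loose form of the direct repeat that LXRs are known to bind, reads on the other strand. It lies 67 to 53 bases before the start and was found in 0.177% of 32851 promoters of the table. The half-site alone was in 35.2% of them. The 6 genes had 8 promoters in the table, of which 5 held it, 1 in each of 5 genes. Apoe had 3 annotated starts, and the half-site was found only before the one shown, 27 bases ahead of it, while that of Apoc2 was 114 bases before the start. Pltp had none in this window. The letters AGGTGTGA of a T-box site, the motif of the ABC factor T-bet, were in 1.12% of promoters and in 0 of the 6 members. Every motif was searched on both strands, and the half-site is contained in the pair. A match describes the letters only.

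Among 87 other genes of lipid handling, grouped by function into 7 lists, 39 passed the filter in the comparison of ABCs with aged FO B cells. Of these, 15 were higher in ABCs, 9 were lower and 15 were not called. That is 61.5% called beside the 35.9% of all genes, in lists chosen with earlier results of these data known. The median log2 difference of the 39 was -0.01, as was that of all genes. In the age comparison 0 of 37 genes tested passed at an FDR under 0.05 with limma, and 10 had an unadjusted p under 0.05, beside 1298 of all genes.

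No other apolipoprotein gene was expressed at a level that could be tested, with 0 of 11 passing the filter. The highest value was that of Apoa2, a protein of high-density lipoprotein, at 0.813, 0.755 and 2.12 FPKM in ABCs and at most 0.189 FPKM in FO B cells. It is named here after its values were seen.

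Of 8 lipid-sensing nuclear receptors, 2 passed the filter. Nr1h2, which encodes LXR beta, was at 40.6 ± 3.73, 40.4 ± 1.31 and 37.7 ± 5.83 FPKM in young FO B cells, aged FO B cells and ABCs (SD, n = 3 each). Its log2 difference in ABCs was -0.11 ± 0.11 (95% interval -0.37 to 0.15, FDR 0.469). Nr1h3, which encodes LXR alpha, stayed at or under 0.919 FPKM, with 20, 14 and 11 reads over the 3 groups. Rxra, a retinoid X receptor gene, was at or under 0.226 FPKM and below the filter, with 8, 3 and 23 reads over the 3 groups and its ABC libraries above the others without overlap. Its paralog Rxrb fell in ABCs from 22.9 ± 3.32 to 14.7 ± 2.62 FPKM (log2 difference -0.61 ± 0.15, FDR 0.0202). The Rxrb call was lost, with an FDR of up to 0.0745, when any of 3 single libraries was left out (FO B (Aged) replicate 1 or 3, or ABC replicate 1).

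Other known LXR target genes were split, with 3 of 7 tested higher in ABCs, 1 lower and 3 not called. Smpdl3a, a phosphodiesterase, rose from 26.7 ± 2.97 to 84.2 ± 25.0 FPKM (log2 difference 1.59 ± 0.19, FDR 0.000978). Scd2, a fatty acid desaturase, rose from 15.8 ± 1.11 to 29.8 ± 7.73 FPKM (0.85 ± 0.17, FDR 0.00762). Its paralog Scd1 fell from 179 ± 4.68 to 102 ± 5.37 FPKM (-0.81 ± 0.06, FDR 0.000185). Desaturases of the same family thus differed in direction, as Abca1 and Abcg1 did.

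Of 15 further lipid transporters and transfer proteins, 12 were tested, and 5 were higher, 2 were lower and 5 were not called. Gramd1b, a carrier of cholesterol to the endoplasmic reticulum, rose from 1.52 ± 0.209 to 6.26 ± 1.15 FPKM (log2 difference 1.52 ± 0.16, FDR 0.00048). The added constant lowers this log2 value too, the ratio of the means being 4.13. The related Gramd1a fell from 117 ± 6.04 to 71.3 ± 6.96 FPKM (-0.71 ± 0.09, FDR 0.00104). Npc2, which hands cholesterol on inside lysosomes, rose from 28.9 ± 1.03 to 61.6 ± 3.89 FPKM (1.06 ± 0.07, FDR 0.000106). The oxysterol-binding protein gene Osbp was lower, at 12.9, 10.7 and 6.54 FPKM in aged FO B cells and 4.67, 4.56 and 4.86 FPKM in ABCs (-0.91 ± 0.22, FDR 0.0156), and its FDR was 0.0565 without FO B (Aged) replicate 2.

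The lipoprotein receptor list held 6 tested genes of 15, of which 1 was higher, 3 were lower and 2 were not called. The sorting receptor gene Sorl1 fell from 63.5 ± 4.75 FPKM in aged FO B cells to 28.4 ± 7.18 FPKM in ABCs (log2 difference -1.16 ± 0.18, FDR 0.00276). Lrp1 had 13, 2 and 10 reads over the 3 groups.

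Cd36, a fatty acid and lipoprotein receptor that was not called, is named here after its values were seen. It was at 13.3, 25.3 and 1.58 FPKM in ABC replicates 1, 2 and 3 and at 11.0 to 12.8 FPKM in aged FO B cells. ABC replicate 3 was thus the lowest ABC library for both Cd36 and Pltp, and the highest for Apoe and Apoc2.

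Lipases and their regulators gave 4 higher, 1 lower and 2 not called of 7 tested. Lipc, hepatic lipase, was at 30.9, 27.7 and 42.4 FPKM in ABCs against 0.432, 1.60 and 1.12 FPKM in aged FO B cells and at most 0.461 FPKM in young ones. In recovered reads this was 1462 in ABCs and 50 in aged FO B cells, and its log2 difference was 4.10 ± 0.25 (FDR 5.64e-05). With aged FO B cells near 1 FPKM the added constant lowers this value, which reached 5.01 among the alternatives, and the ratio of the means was 32.1. Abhd5, a coactivator of triglyceride lipase, rose from 0.891 ± 0.235 to 4.97 ± 0.260 FPKM (1.67 ± 0.15, FDR 0.000275). It passed the filter only through its ABC libraries, and the added constant lowers its log2 value, the ratio of the means being 5.58. Lipe, hormone-sensitive lipase, was only just called as lower (-0.41 ± 0.13, FDR 0.0444). The Lipe call was lost when any library but ABC replicate 2 was left out, with FDRs of up to 0.14.

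Of the 14 other lipid droplet genes 5 were tested, with 2 higher, 1 lower and 2 not called. Bscl2, which encodes seipin, rose from 42 ± 4.31 to 109 ± 12.0 FPKM (log2 difference 1.36 ± 0.11, FDR 0.000183). Plin3, a droplet coat protein related to Plin2, rose from 28.1 ± 2.1 to 56.8 ± 6.80 FPKM (0.99 ± 0.10, FDR 0.000544). Dgat1, which makes triglyceride, fell from 21.1 ± 2.08 to 15.5 ± 0.404 FPKM (-0.41 ± 0.09, FDR 0.012). Plin1, Cidea and Cidec, droplet proteins of fat cells, were listed at 0 in all libraries.

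**Figure D3:**
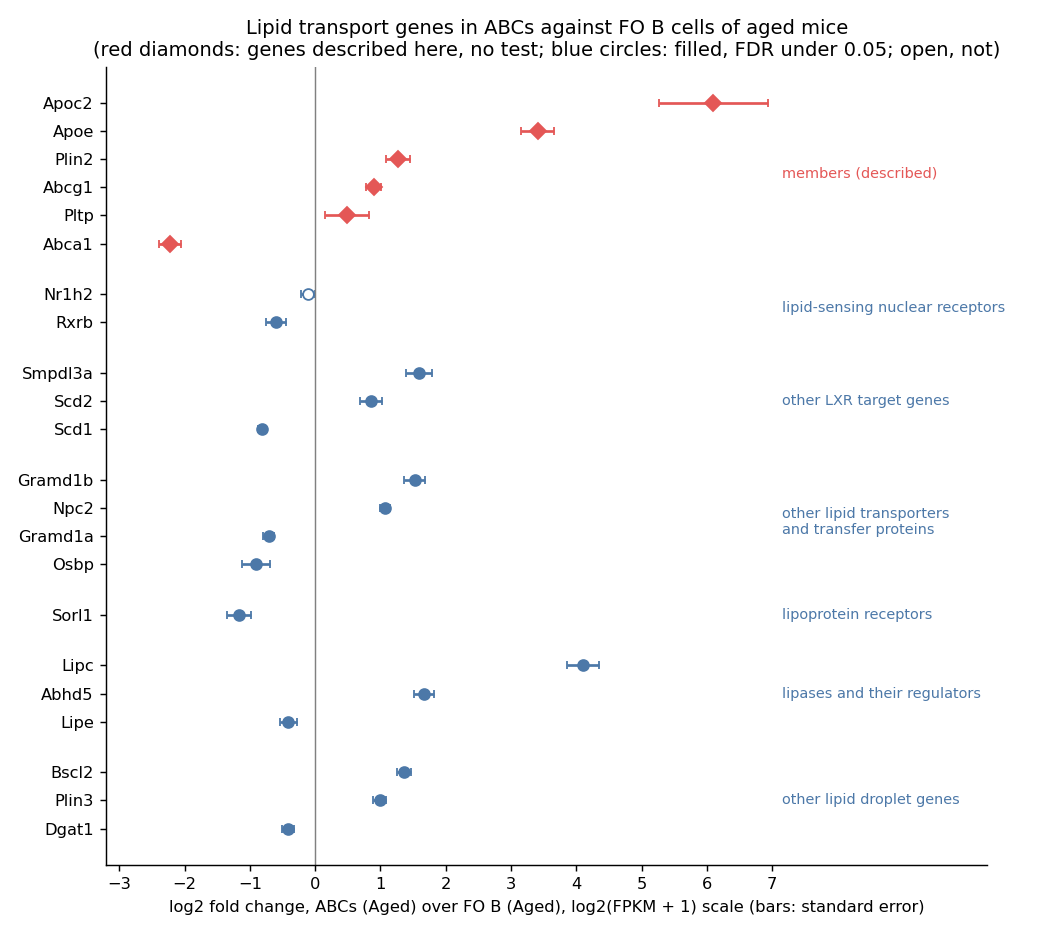
Difference between ABCs (Aged) and FO B (Aged) on the log2(FPKM + 1) scale, with bars of 1 SE (n = 3 libraries a group); red diamonds are the selected genes, which are described only, and blue circles are the named genes of 6 other lists, filled where the FDR was under 0.05. Apoc2 (6.10), Lipc (4.10) and Apoe (3.41) lie farthest to the right and Abca1 (-2.23) farthest to the left of the genes drawn.

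The plot of log2 differences sets the selected genes beside the named genes of the lists. By their counts, every list with more than 1 called gene had calls in both directions.

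Because macrophages are a known source of Apoe, Apoc2 and the C1q proteins, the marker genes of other cells were read in the same libraries. The sum over 7 B lineage markers was 7455 to 9664 FPKM in ABCs, 8540 to 8927 in aged and 8924 to 8963 in young FO B cells. The sum over 20 macrophage and monocyte markers was 297 to 345 FPKM in ABCs, 32.2 to 39.1 in aged and 49.3 to 71.6 in young FO B cells. Most of the ABC sum was Adgre1, the F4/80 gene, at 174 to 222 FPKM, and without it the sums were 106 to 124, 29.5 to 36.4 and 47.7 to 68.0 FPKM.

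In ABCs 6 of the 20 macrophage markers lay above aged FO B cells without overlap and 2 lay below, and of 9 tested 5 were called higher and 0 lower. Among all genes tested, 52.6% did not overlap, 19.4% were called higher and 16.5% were called lower. The mean was under 1 FPKM for 11 of the 20 in ABCs, 13 in aged and 9 in young FO B cells, with Mertk at 0 in all aged FO B libraries and Marco in all young ones. The 3 C1q genes summed to 5.45, 1.69 and 6.72 FPKM in ABC replicates 1, 2 and 3, the order of Apoe and Apoc2. In aged and young FO B cells they summed to 0.831 to 3.43 and 3.17 to 4.54 FPKM. Taken singly, each C1q gene was low and overlapped between ABCs and aged FO B cells. C1qa, at 0.841, 0 and 0.278 FPKM in ABC replicates 1, 2 and 3, did not have the order of Apoe. The whole list of 20 did not have that order, at 297, 345 and 305 FPKM in ABC replicates 1, 2 and 3. Without Adgre1 it was at 123, 124 and 106 FPKM. The largest part of that sum was Ly6c2, at 77.3, 84.1 and 61.3 FPKM, which stood in the same order, so the order of this sum describes mainly Ly6c2. Csf1r was at 0.301 to 0.831 FPKM in ABCs. The part of such cells in the levels of Apoe and Apoc2 was not tested, and in sorted bulk samples fewer cells of a type and less RNA per cell cannot be told apart. With age in FO B cells, where Pltp rose, the summed macrophage markers were lower and did not overlap.

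The remaining lists were read in the same way. Dendritic cell markers summed to 8.85 to 11.9 FPKM in ABCs, 2.68 to 5.36 in aged and 3.53 to 3.69 in young FO B cells, with Clec9a and Clec10a at 0 in aged FO B cells. T cell markers summed to 5.20 to 38.5 FPKM in ABCs, highest in replicate 2 and mostly Cd3g, and to at most 1.13 FPKM in FO B cells. Plasma cell markers summed to 976 to 1275 FPKM in ABCs, mostly Mzb1 at 769 to 1050 FPKM. The sums were 443 to 471 FPKM in aged FO B cells, with Mzb1 at 297 to 327 FPKM, and 440 to 449 FPKM in young ones. Neutrophil markers summed to 2.80 to 4.66 FPKM in ABCs, 4.22 to 28.6 in aged and 2.97 to 11.0 in young FO B cells, with overlap. The part of these in the lipid genes was not tested.

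**Figure D4:**
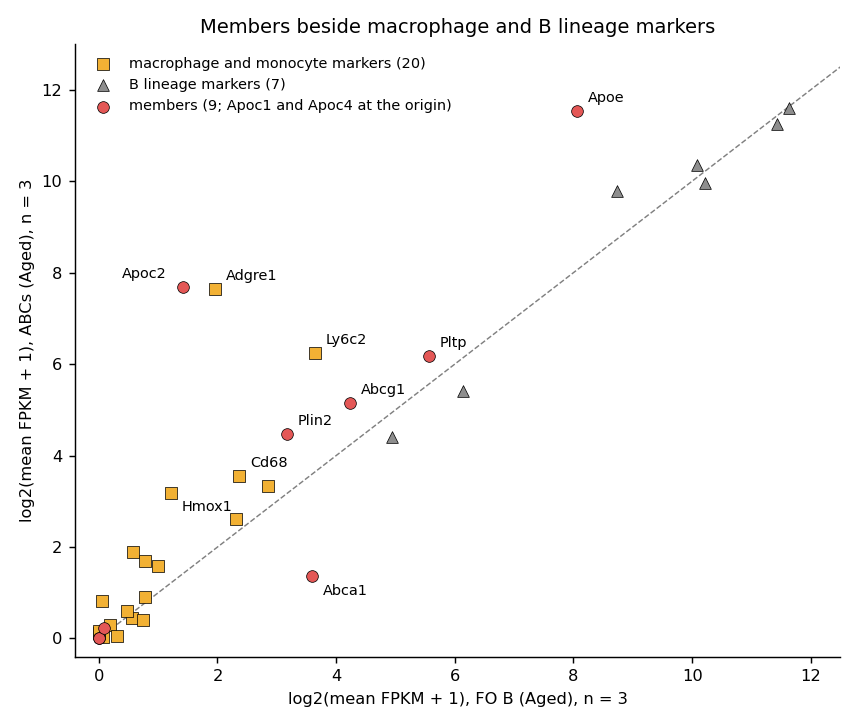
Mean level in ABCs (Aged) against mean level in FO B (Aged), both as log2(mean FPKM + 1) with n = 3 libraries, for the 9 selected genes (circles), 20 macrophage and monocyte markers (squares) and 7 B lineage markers (triangles); the dashed line marks equal levels. The Apoe level in ABCs lies in the range of the B lineage markers and Apoc2 beside Adgre1, and most macrophage markers lie near the origin.

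In the plot of marker levels, Apoe in ABCs reached the range of the B lineage markers, and Apoc2 lay next to Adgre1.

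The genes with the most similar profile were sought among 10369 genes, by the mean absolute difference over the 9 libraries of log2(FPKM + 1) relative to aged FO B cells. For Apoe these were 4930455G09Rik (0.12), Nrp2 (0.14) and Kifc3 (0.14), all of them low in FO B cells, with means of 0, 0.191 and 0.0910 FPKM in the aged ones and of 8.93, 11.3 and 9.51 FPKM in ABCs. None came near the level of Apoe. For genes this low the added constant shrinks the difference, so the likeness is one on this scale and not in the ratio of means. Apoc2 was nearest to Slpi (0.40), Fgl2 (0.65) and Rgs1 (0.79), and Pltp to Cebpb (0.21), Gbp7 (0.24) and Gm6377 (0.26). Cebpb, a transcription factor gene, had means of 6.79, 16.3 and 20.4 FPKM in young FO B cells, aged FO B cells and ABCs, so that it too was higher in aged FO B cells. Abca1 was nearest to Pxk (0.15), Chchd10 (0.16) and Pgap1 (0.17), Abcg1 to Ide (0.05), Pik3c2b (0.05) and Stk38 (0.05), and Plin2 to Wfs1 (0.08), Ptpn1 (0.11) and Pitpnc1 (0.12).

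All libraries were of similar depth. The steps between low values gave about 7420000 to 9020000 mapped reads in each, and 10032 to 10445 genes were at 1 FPKM or more, with ABC libraries at 7480000 to 8270000 reads within the range of the FO B libraries.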

How the data were processed

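RNA from sorted splenic B cells was reverse transcribed (SMART-Seq HT) and sequenced as 101-base single-end reads. The authors deposited FPKM values for 24346 symbols in each of 9 libraries. The submitters' processing notes name TopHat2 2.1.1, Bowtie2 2.2.8, SAMtools 0.1.18, Cuffdiff 2.2.1 and the mm10 build; the paper names other versions of the first 3 tools and Cufflinks with the last version number. The annotation is not given in the sources used here.

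The genes and all lists were chosen with earlier results of these data known. Groups and replicate numbers came from the titles. Main fits used limma 3.58.1 (R 4.3.3; lmFit, eBayes with trend) on log2(FPKM + 1), with 2 groups of 3 libraries, a mean of at least 1 FPKM over these 6 libraries, Benjamini-Hochberg FDR over all genes tested, and calls at an FDR under 0.05. Every selected gene was named; from each list the 2 called genes with the largest rise and the 2 with the largest decrease were named, with Nr1h2, Nr1h3, Rxra and Lrp1 always, and for each selected gene the 3 genes of nearest profile. Other genes are named as such, and some items are not reported here. Single-gene tests were exact two-sided permutation tests (scipy 1.17.1). Where low FPKM values were whole multiples of 1 step within 0.02, reads were recovered, and total depth was estimated from 463 such genes. Intervals cover the spread between libraries. Alternatives were an added constant of 0.1, no filter, a filter at 5 FPKM, TPM scaling, quantile normalization, no trend, all 9 libraries in one fit, a replicate block, the study's limits and each library left out. Coordinates are from GENCODE M21 and promoters from RefSeq. The fits were tested on simulated data in which both groups had the spread of the FO B group compared against. All 100 genes changed at each size were called. Of the unchanged genes 15 were called for ABCs against aged FO B cells and 7 for the ages. The highest library exceeded the lowest over 2-fold for 6.35% of genes in ABCs and 2.52% in aged FO B cells, so the simulation does not represent the spread of ABCs.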

Additional observations from a re-analysis of the deposited data

How the results depend on the processing

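The count of called selected genes kept within 1.5 times its value under all alternatives but the study's limits and the 9-library fit. The study's limits gave 2 against aged FO B cells, beside 1.92% of all genes, 0 with age and 3 against young FO B cells. The fit of all 9 libraries gave 0 with age because Pltp was lost. These counts describe genes that were selected with the values known, so a stable count supports nothing about them. For the list genes in ABCs the study's limits left 1 higher and 1 lower, and leaving out 1 library gave 0 to 1 called with age, the 1 (Osbp, FDR 0.0356) without FO B (Aged) replicate 3. Small age differences changed sign when a library was left out, so no direction is read from them. The aged minus young mean of Apoe ran from -16.4 to 13.2 FPKM, that of Abca1 from -1.59 to 0.411 and that of Abcg1 from -1.89 to 0.167, and the log2 differences ran from -0.0911 to 0.0689, from -0.2004 to 0.0433 and from -0.1371 to 0.0145. Among single genes in ABCs against aged FO B cells, 320 values kept their side of the limit, 12 lost the call (Rxrb, Osbp and Lipe) and 1 gained it (Pltp), and the cause was not tested. Deviations of same-numbered libraries correlated weakly or not at all, at 0.0845, -0.019 and 0.108 for ABCs with aged FO B cells. For the ages the values were -0.0541, 0.138 and -0.0921. Libraries of other numbers gave -0.108 to 0.0589 and -0.105 to 0.157. With 3 libraries a group these values cannot exclude pairing, and the labels do not say whether ABCs and FO B cells shared mice. The numbers were not taken as pairs in the main fits. With the replicate as a block, Rxrb and Lipe lost their call among the named genes. Lpl and the other apolipoproteins, Apoa2 included, were below the filter on low values in every comparison. Apoc1 and Apoc4 were listed at 0 throughout, and whether this reflects how their rows were counted was not tested.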
